A study of Mus musculus with 12 samples.

Results

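Heat shock proteins and DNAJ proteins are the main families of molecular chaperones and their helpers, and their transcripts were followed here in whole mouse retinas after Otx2 deletion in photoreceptors (PRs). The genes were chosen by name. Protein-coding genes whose mouse symbol starts with Hspa, Hspb, Hspd, Hspe, Hsph, Hsp90, Dnaja, Dnajb or Dnajc were taken if they had at least 10 counts in at least 3 of the 12 libraries. Of 74 genes with such a symbol, 67 passed, out of 54146 genes counted and 15082 protein-coding genes with the same minimum. They comprise 13 Hspa, 9 Hspb, 3 Hsp90, 1 Hspd, 1 Hspe, 1 Hsph, 4 Dnaja, 10 Dnajb and 25 Dnajc genes. Dnajb7, Dnajb8, Dnajb13, Dnajc5b, Dnajc5g, Dnajc22 and Hspb9 did not pass, with at most 18 counts in any library (Dnajc22). A symbol is not a function: Hspbp1 and Hspbap1 encode proteins that bind heat shock proteins, and Hspb11 encodes a component of intraflagellar transport, so 6 of the 9 Hspb genes encode small heat shock proteins.

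The 12 libraries came from 12 mice of a 129/SV background, with 1 retina per mouse and 3 mice per group. The groups were P30 control mice (mice 1 to 3) and conditional knockout (cKO) mice, carrying Crx-CreERT2 and Otx2 flox/flox, at P32 (mice 4 to 6), P34 (mice 7 to 9) and P38 (mice 10 to 12), which received tamoxifen once at P30. The Crx promoter drives the tamoxifen-dependent Cre in PRs, where it removes the second coding exon of Otx2, so other retinal cells keep the gene. The labels call the P30 mice control and give no further genotype. Age, tamoxifen and deletion changed together between P30 and the cKO groups and cannot be told apart.

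As background, heat shock proteins are named after the molecular mass of the founding members. Hsp70 proteins (Hspa genes) bind exposed hydrophobic stretches of unfolded proteins in a cycle driven by ATP, and J proteins (Dnaj genes) bring clients to Hsp70 and start ATP hydrolysis through their J domain. Hsp110 (Hsph1) exchanges the nucleotide of Hsp70, Hsp90 completes the folding of kinases and receptors, the Hsp60/Hsp10 chamber (Hspd1 and Hspe1) folds mitochondrial proteins, and small heat shock proteins (Hspb genes) hold unfolding proteins without using ATP. Heat shock factor 1 induces many of these genes on stress by binding inverted repeats of GAA, the heat shock element. PRs renew their outer segments throughout life, and the membrane proteins of these segments fold in the endoplasmic reticulum.

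Several libraries stood apart in ways that touch the chaperone values. Counts on genes ranged from 29701483 to 60145034, and 0.632 to 0.707% of them fell on the 67 genes. CPM of single genes are read counts scaled to library size with TMM factors. Summed levels of marker lists, here and below, used library size alone, without TMM factors, and the r values with a list use these sums. Lens RNA, measured as the summed CPM of a list of 12 lens genes, was 6839, 379 and 26994 in P30 mice 1 to 3. It was 34242, 22833 and 549.6 in P32 mice 4 to 6, 171, 499 and 392 in P34 mice 7 to 9, and 6336, 2700 and 3749 in P38 mice 10 to 12. All 12 lens genes had counts in every mouse. Mouse 4 had the highest or the lowest level of the 12 mice for 44 of the 66 chaperone genes tested (25 highest, 19 lowest) and for 56.9% of all genes tested. The P30 mice were 3 females, and 2, 1 and 1 of the 3 cKO mice were female at P32, P34 and P38, as read from Xist. Otx2 counts, taken over all exons, are no check of the deletion of 1 exon; they gave 293 to 328 CPM at P30 and 307 to 377 CPM in cKO mice.

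At each cKO age, 0 of the 66 genes tested passed the threshold, which asked for a Benjamini-Hochberg adjusted p of 0.05 or less and a log2 difference of 0.5 or more in either direction (edgeR quasi-likelihood test, adjusted over 18628 genes). The log2 fold changes against P30 ran from -0.54 (Hspb8) to 0.99 (Hspb2) at P32, from -3.17 (Hspb1) to 0.37 (Dnajc27) at P34 and from -1.98 (Hspb1) to 0.34 (Hspb6) at P38. Their median was 0.02, 0.02 and 0.04, beside -0.01, -0.00 and -0.01 over all genes tested, and the median standard error of a chaperone gene was 0.13. Genes outside the families did pass at P34: 0.66% of all genes were lower and 0% were higher, while 0% passed in either direction at P32 and at P38. Without adjustment, p was at most 0.05 for 1 lower and 0 higher chaperone genes at P32 (all genes 3.09% and 2.55%), for 3 lower (4.55%, all genes 7.06%) and 5 higher (7.58%, all genes 3.4%) at P34, and for 1 lower (all genes 3.82%) and 3 higher (4.55%, all genes 1.82%) at P38. DESeq2 also called 0 against P30 at the 3 ages, where it called 0.134%, 1.98% and 0.242% of all genes. The 5 higher genes of P34 were Dnajc15, Dnajc27, Dnajc14, Dnajb14 and Hspa12a, and their count was 0 without P30 mouse 1 (all genes 1.34%) or P30 mouse 2 (1.15%) and 8 without P32 mouse 4 (11.9%, all genes 6.71%), which enters through the shared estimate of spread. The 3 of P38 were Hspb6, Dnajb12 and Hsp90b1, with a count of 0 without P30 mouse 1 (all genes 0.719%), P30 mouse 2 (0.841%) or P38 mouse 10 (1.62%) and 11 without P32 mouse 4 (16.4%, all genes 4.94%). By ranges alone, the 3 mice of a group lay below all P30 mice for 5 genes at P32 (7.58%, all genes 4.39%), 3 at P34 (4.55%, all genes 9.67%) and 4 at P38 (6.06%, all genes 7.96%), and above them for 1 (1.52%, all genes 5.26%), 12 (18.2%, all genes 10.4%) and 13 (19.7%, all genes 8.23%). When all 9 cKO mice were compared with P30, 0 genes passed (all genes 0.36% lower), with unadjusted p at most 0.05 for Hspb8 as the lower one and for 0 higher genes (all genes 3.61% and 0.574%).

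Most chaperone transcripts varied little between mice. The SD of log2 CPM within a condition had a median of 0.164 over the 66 genes, beside 0.239 over all genes tested, and exceeded 0.5 for 3 of them (4.55%) against 17.1% of all genes. These shares are not matched for level, and the chaperone genes were the more abundant (median 9.6 RPKM against 3.58). The ratio of the highest to the lowest mouse was below 2 for 54 of the 66 and at least 3 for 4, namely Hspb2, Hspb1, Hspb3 and Hspa1l. Dnajc11, which encodes a mitochondrial J protein, varied by 1.12-fold over the 12 mice, and Hspa9, the mitochondrial Hsp70, by 1.17-fold. The map of all 66 genes shows this evenness, broken by 3 small heat shock protein rows and by the column of mouse 4.

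**Figure D1:**
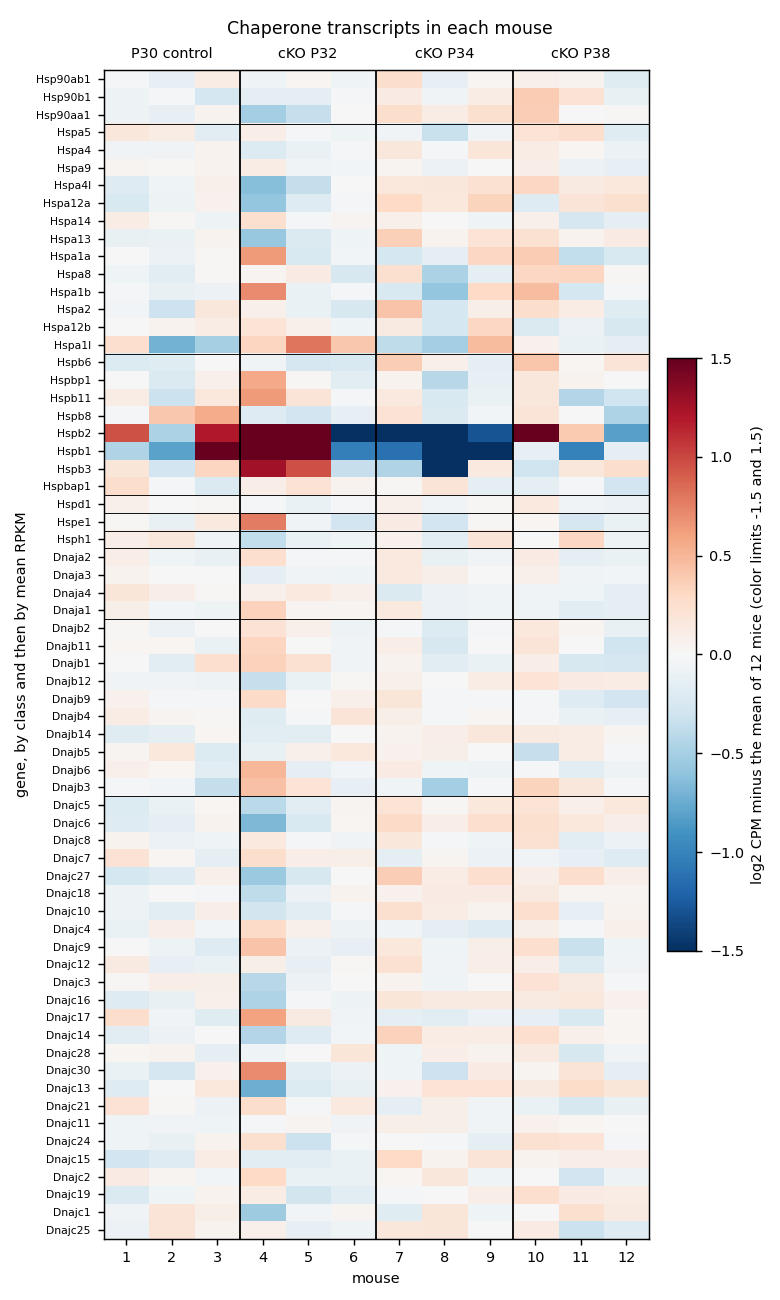
Level of each of the 66 tested chaperone genes (rows, by class and then by mean RPKM) in each of the 12 mice (columns, by group), as log2 CPM minus the mean of the 12 mice, with colors limited to -1.5 and 1.5. Hspb1, Hspb2 and Hspb3 carry the strongest colors, and mouse 4 is at an extreme for 44 of the 66 genes.

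Per exon length, in RPKM (CPM per kilobase of annotated exon), Hsp90 transcripts had the highest values. Reads with several positions were not counted, so the place of genes such as Hspa8 (3.79 RPKM) in this order is uncertain. The mean over 12 mice was 259 RPKM for Hsp90ab1, the constitutive cytosolic Hsp90, 162 for Hsp90b1, the Hsp90 of the endoplasmic reticulum, and 70.4 for Hsp90aa1, the stress-responsive cytosolic copy. Hspa5 (87.9 RPKM), which encodes BiP, the Hsp70 of the endoplasmic reticulum, ranked between them. The 5 most abundant genes, with Dnajc5 as the fifth, made up 42.4% of the summed RPKM of the 66 genes and the first 20 made up 76.9%. Of the 66 genes, 55 lay above the median level of all genes tested. At the other end, Hspa1l had 0.0985 RPKM.

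Hsp90ab1 CPM was 767, 712 and 841 at P30, 744, 794 and 741 at P32, 927, 714 and 792 at P34, then 817, 806 and 682 at P38. The 4 groups overlapped, and the log2 fold changes against P30 were -0.03, 0.07 and -0.01 (SE 0.13 each, n = 3 mice per group). Hsp90aa1 CPM was 259, 252 and 282 at P30, 192, 215 and 272 at P32, 327, 295 and 322 at P34, then 354, 274 and 276 at P38. Every P34 mouse was above every P30 mouse, and P32 mice 4 and 5 were below, with log2 fold changes of -0.22, 0.25 and 0.19 (SE 0.14, adjusted p = 0.698, 0.57 and 0.853). Hsp90b1 CPM was 616, 638 and 539 at P30, 588, 589 and 634 at P32, 704, 624 and 697 at P34, then 846, 750 and 601 at P38. P38 mice 10 and 11 were above all P30 mice and mouse 12 was among them, for a log2 fold change of 0.29 (SE 0.13, adjusted p = 0.847). Summed over the 3 genes, Hsp90 RPKM was 473 ± 13.3 (SD, n = 3) at P30, 461 ± 16 at P32, 518 ± 49.7 at P34 and 514 ± 63.3 at P38.

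Among the Hsp70 genes, differences between ages were within 0.4 log2 units of P30 for every gene other than the rare Hspa1l. Hspa5 CPM was 416, 398 and 331 at P30, 396, 366 and 354 at P32, 357, 293 and 355 at P34, then 425, 444 and 327 at P38. These groups overlapped at all ages (log2 fold changes -0.04, -0.19 and 0.06, SE 0.14). Over the 12 mice, the Pearson r of Hspa5 with 3 partners in the endoplasmic reticulum was 0.70 with Dnajb11, 0.51 with Hsp90b1 and 0.11 with Dnajb9, and within conditions it was 0.84, 0.81 and 0.58. These values share libraries and carry no p. Hspa13, which encodes a microsomal Hsp70-like protein also called Stch, had 60.9, 61.3 and 68.2 CPM at P30, 44.5, 56.6 and 63.0 at P32, 84.4, 68.5 and 75.6 at P34, then 77.1, 68.4 and 71.6 at P38. All 6 mice of P34 and P38 were above all P30 mice (log2 fold changes 0.26 and 0.19, SE 0.13, adjusted p = 0.508 and 0.847). Summed over the 13 genes, Hspa RPKM was 274 ± 2.35 at P30 and 260 ± 6.3, 282 ± 20.1 and 289 ± 20.1 at P32, P34 and P38 (SD, n = 3). Unadjusted p was at most 0.05 for Hspa12a at P34 (log2 fold change 0.34, SE 0.16, adjusted p = 0.477), an outlying Hsp70 homolog, and for no other Hspa gene against P30.

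Hspa1a and Hspa1b, the classic heat-inducible Hsp70 genes, lie 12918 bases apart in GRCm38 by their start sites on chromosome 17 and are near-identical copies, so reads that fit both were not counted and each value is a lower estimate. Their promoters are shown because their match bears on how alike the copies are. In RefSeq's GRCm38.p6 models, the 250 bases before the start differ at 3 positions between the copies, and each holds 1 two-unit heat shock element, searched as GAANNTTC or TTCNNGAA, which lies 104 to 97 bases before the start and is capitalized. The Hspa1a stretch is chr17:34972157-34972406 and the Hspa1b stretch is chr17:34959239-34959488, both on the minus strand.
Hspa1a: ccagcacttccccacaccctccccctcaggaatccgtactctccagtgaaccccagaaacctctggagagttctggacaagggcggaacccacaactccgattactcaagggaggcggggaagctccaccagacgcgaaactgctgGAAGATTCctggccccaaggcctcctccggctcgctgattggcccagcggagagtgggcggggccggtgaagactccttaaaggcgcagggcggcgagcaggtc
Hspa1b: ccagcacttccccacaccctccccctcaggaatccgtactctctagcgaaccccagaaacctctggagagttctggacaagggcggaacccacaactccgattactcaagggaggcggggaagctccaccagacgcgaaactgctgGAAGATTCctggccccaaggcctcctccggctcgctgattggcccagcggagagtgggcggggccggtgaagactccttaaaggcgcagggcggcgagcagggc
Hspa1a CPM was 12.9, 12.1 and 13.0 at P30, 20.01, 10.9 and 12.4 at P32, 10.7, 11.7 and 15.9 at P34, then 16.8, 9.97 and 10.96 at P38. Hspa1b CPM was 7.55, 7.15 and 7.25 at P30, 12.7, 7.21 and 7.57 at P32, 6.57, 5.14 and 9.48 at P34, then 10.6, 6.40 and 7.57 at P38. Mice 4, 9 and 10 were high for both genes, and the P30 mice were closer to each other than the mice of any cKO age. Over the 12 mice the log2 CPM of both genes had a Pearson r of 0.88 (Spearman rho 0.78), given as a description because the mice share groups and libraries. Against P30 the log2 fold changes were 0.19, 0.01 and -0.01 for Hspa1a (SE 0.25) and 0.32, -0.05 and 0.16 for Hspa1b (SE 0.27). Hspa1l, which starts 547 bases from Hspa1a on the opposite strand and is best known from testis, had 0.121 to 0.284 CPM at P30, 0.300, 0.439 and 0.320 at P32, 0.147 to 0.339 at P34 and 0.204 to 0.243 at P38. Its P32 mice were above the P30 mice without overlap (log2 fold change 0.89, SE 0.43, adjusted p = 0.698), on 5 to 18 counts per mouse, where 3 counts gave 0.0473 to 0.102 CPM. Its gene model overlaps Gm10501 on the opposite strand, which had a median of 285 counts beside 9 for Hspa1l. Because the strand setting of the counting is not given in the sources used here, any reads of Gm10501 counted on Hspa1l cannot be told apart from its own. Hspa8, the constitutive cytosolic Hsp70, was listed at a mean of 3.79 RPKM, which is uncertain because reads with several positions were not counted. Over the 4 groups in order of age it was 15.3 ± 0.945, 15.9 ± 2.03, 15.1 ± 3.76 and 18.8 ± 2.16 CPM (SD, n = 3).

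The small heat shock proteins held the largest differences among mice, in Hspb1, Hspb2 and Hspb3. Hspb1 (also called Hsp25 in mice, at 135887919 to 135889563 on the plus strand of chromosome 5 in GRCm38) is a heat-inducible member that protects actin filaments. Its 30-base promoter stretch chr5:135887801-135887830 (GRCm38.p6, plus strand) is shown because 2 two-unit elements, in capitals, lie in it, between 117 and 90 bases before the start.
Hspb1: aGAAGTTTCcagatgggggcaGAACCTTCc
Hspb1 CPM was 1.31, 1.01 and 14.2 in P30 mice 1 to 3, 10.5, 12.1 and 0.863 in P32 mice 4 to 6, 0.801, 0.490 and 0.508 in P34 mice 7 to 9, and 1.65, 0.868 and 1.63 in P38 mice 10 to 12. Mice 3, 4 and 5 stood apart from the other 9, and the P34 mice were lower than every P30 mouse. The log2 fold change at P34 was -3.17 (SE 1.09, adjusted p = 0.324), which fell short of the threshold. Without P30 mouse 3 it was -0.96, and at P38 the log2 fold change went from -1.98 (SE 1.01) to 0.24 without that mouse; at P32 it went from 0.52 to 2.75 (adjusted p = 0.923).

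Hspb2 encodes a small heat shock protein of heart and muscle, and the gene lies on the strand opposite Cryab, the alphaB-crystallin gene of lens, on chromosome 9. The start sites are 1029 bases apart and the annotated genes overlap. In CPM, the P30 mice had 4.05, 1.47 and 4.81 of Hspb2, the P32 mice 13.6, 6.28 and 0.591, the P34 mice 0.525, 0.416 and 0.812, and the P38 mice 6.24, 2.72 and 1.15. Those of P34 were again below all P30 mice, with a log2 fold change of -2.57 (SE 0.94, adjusted p = 0.362), and P32 and P38 mice overlapped P30 (0.99 and -0.02, SE 0.83 each). In a fit of only P30 and P34 mice, Hspb2 was the 1 gene of 65 that passed at P34 (1.54%, all genes 1.28%; log2 fold change -2.59, adjusted p = 0.0484; over all alternatives the adjusted p ranged from 0.0484 to 0.937). At P32 its log2 fold change was -0.00 without mouse 4. Hspb2 counts were 0.108 to 1.53% of the Cryab counts of the same mouse, and without the strand setting, reads of Cryab counted on Hspb2 cannot be told apart from its own. In all, 17 of the 67 chaperone genes have gene models that overlap an opposite-strand gene with a median of at least 10 counts, and for 10 of them (Hspa1l, Hspb2, Hspe1, Dnaja1, Dnaja3, Dnaja4, Dnajc1, Dnajc17, Dnajc19 and Dnajc30) that gene had more counts than the chaperone gene. Hspb3, another muscle member, had 0.565 to 0.891 CPM at P30, 1.74, 1.42 and 0.542 at P32, 0.147 to 0.779 at P34 and 0.558 to 0.849 at P38, and mice 4 and 5 were the highest.

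Lens RNA moved with these genes. Mice 3, 4 and 5, the highest for Hspb1, were also the 3 with the most lens RNA, and 11 of the 12 lens genes had a positive log2 fold change at P32 and 12 of 12 a negative one at P34 (median -5.02, 12 at an unadjusted p of at most 0.05, 0 called). Over the 12 mice the Pearson r with the lens level, on log2 scales, was 0.87 for Hspb1 (Spearman rho 0.85), 0.90 for Hspb2 (rho 0.84) and 0.69 for Hspb3 (rho 0.80). These points share libraries and groups and carry no p. Hspb2 also had an r of 0.94 with the summed level of 7 genes of corneal and conjunctival epithelium, whose range was 3.98 to 25.5 CPM at P30, 1.54 to 56.6 at P32, 1.36 to 4.15 at P34 and 6.08 to 30.9 at P38. Dsg1a of that list was at 0 in 2 mice and Krt5 in 1. Aldh3a1 was the largest part of the sum in mice 1, 3, 4, 5, 10 and 11, with 31.1 and 18.2 CPM in mice 10 and 11. Krt12 of the same list had 8.82 and 8.19 CPM in mice 4 and 5, but 0.327, 0.873 and 0.305 in mice 3, 10 and 11. The r is thus with a sum led by Aldh3a1, and the other genes of the list were not tested singly. Smooth muscle and ciliary markers were low at P34 as well. The summed level of 8 smooth muscle genes was 31.6 to 191 CPM at P30, 11.9 to 51.4 at P32, 9.99 to 14.01 at P34 and 16.8 to 21.05 at P38, and that of 9 genes of ciliary body and iris was 100.6 to 116 CPM at P30, 63.3 to 104 at P32, 52.9 to 71.8 at P34 and 64.4 to 101 at P38. At P34, 6 of 6 smooth muscle genes tested had a negative log2 fold change (median -2.79, 4 called, Myh11, Acta2, Tagln and Myl9), as did 8 of 9 ciliary and iris genes (median -1.60, 3 called, Otx1, Zic1 and Zic2), and no gene of either list was at 0 in all mice. The r with the smooth muscle level was 0.63 for Hspb1 (rho 0.78), 0.54 for Hspb2 (rho 0.78) and 0.41 for Hspb3 (rho 0.66). With the ciliary and iris level it was 0.65 for Hspb1 (rho 0.73), 0.85 for Hspb2 (rho 0.73) and 0.60 for Hspb3 (rho 0.50). With the lens level as a covariate, the log2 fold change at P34 was -0.17 for Hspb1 (adjusted p = 0.984; over all alternatives from 0.0677 to 0.984), -0.64 for Hspb2 (adjusted p = 0.937) and -0.05 for Hspb3. How much of each transcript came from lens, epithelial, smooth muscle or ciliary cells was not tested, and in bulk RNA fewer cells of a type and less RNA per cell cannot be told apart.

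**Figure D2:**
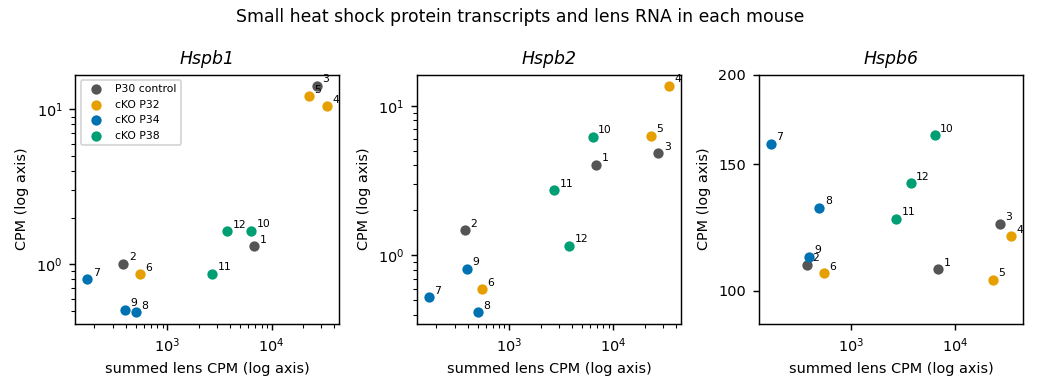
CPM of Hspb1, Hspb2 and Hspb6 (log axes) against the summed CPM of 12 lens genes (log axis, without TMM factors), with 1 point per mouse, labeled by mouse number and colored by group. Hspb1 (r of 0.87 on log2 scales) is highest in mice 3, 4 and 5, which have the most lens RNA. Hspb2 (r of 0.90) is highest in mouse 4, which has the most lens RNA, but is higher in mouse 10 (6.24 CPM) than in mouse 3 (4.81 CPM). The P34 and P38 mice 7 and 10 with the highest Hspb6 have 171 and 6336 CPM of lens RNA.

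The other small heat shock proteins were steadier. Hspb6 (Hsp20), the most abundant Hspb gene at 54.4 RPKM, had 107, 109 and 124 CPM at P30, 119, 104 and 106 at P32, 160.2, 130.5 and 111 at P34, then 165, 126 and 141 at P38. Each P38 mouse was above each P30 mouse, for a log2 fold change of 0.34 (SE 0.14, adjusted p = 0.847), while P34 mouse 9 was among the P30 mice (0.24, SE 0.14). Rod markers moved in the same order: 6 of the 8 listed had a negative log2 fold change at P32 (median -0.16), and 8 of 8 a positive one at P34 (median 0.18) and at P38 (median 0.30), with 0 called. What part of the Hspb6 values moved with rod RNA was not tested.

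Hspb8 (Hsp22), which works with the co-chaperone Bag3 in removing misfolded proteins, had 10.0, 13.4 and 14.9 CPM at P30, 8.82, 8.27 and 9.27 at P32, 11.8, 8.72 and 9.82 at P34, then 11.6, 10.1 and 7.37 at P38. The 3 P32 mice were below all P30 mice, and at P34 and P38 the groups overlapped only through P30 mouse 1. It had the smallest p of the 66 genes at P32 (log2 fold change -0.54, SE 0.19, adjusted p = 0.698) and in the comparison of all cKO mice with P30 (-0.42, SE 0.15, adjusted p = 0.831), and its log2 fold changes at P34 and P38 were -0.34 and -0.40 (SE 0.19). The summed level of 8 markers of retinal pigment epithelium was higher in P30 mice 2 and 3, the 2 mice with the most Hspb8. The sum was 636, 970.4 and 906 CPM at P30, 528 to 673 at P32, 524 to 686 at P34 and 496 to 549.9 at P38. Of the 8 genes, 7, 6 and 6 had a negative log2 fold change (2 called at P34, Tyrp1 and Mlana). Tyr, Tyrp1, Pmel and Mlana were each highest in mice 2 and 3, and the other markers did not share this order. In mouse 2, Rpe65 (5.59 CPM) and Ttr (28.4 CPM) were the lowest of the 12 mice, while Ttr was highest in mouse 3. Best1 and Rlbp1 were lower in mice 2 and 3 than in P30 mouse 1. All 8 of these markers had counts in every mouse. The r of Hspb8 with this list was 0.77 (rho 0.63), and the part of these markers in the Hspb8 values was not tested. Smooth muscle RNA was also highest in P30 mice 2 and 3 (191 and 191 CPM summed, beside 9.99 to 51.4 in the other mice). Hspb7, the cardiovascular member, was too rare to be tested, with 1 to 16 counts per mouse. Of the Hspb symbols that are no small heat shock proteins, Hspb11 and Hspbp1 peaked in mouse 4. Hspb11 had 20.5 CPM there beside 9.69 to 15.02 in the other 11 mice, and Hspbp1, a nucleotide exchange factor of Hsp70, 54.3 beside 27.5 to 41.2. Hspbap1 had 6.28 to 9.21 CPM over the 12 mice with its peak in mouse 1.

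**Figure D3:**
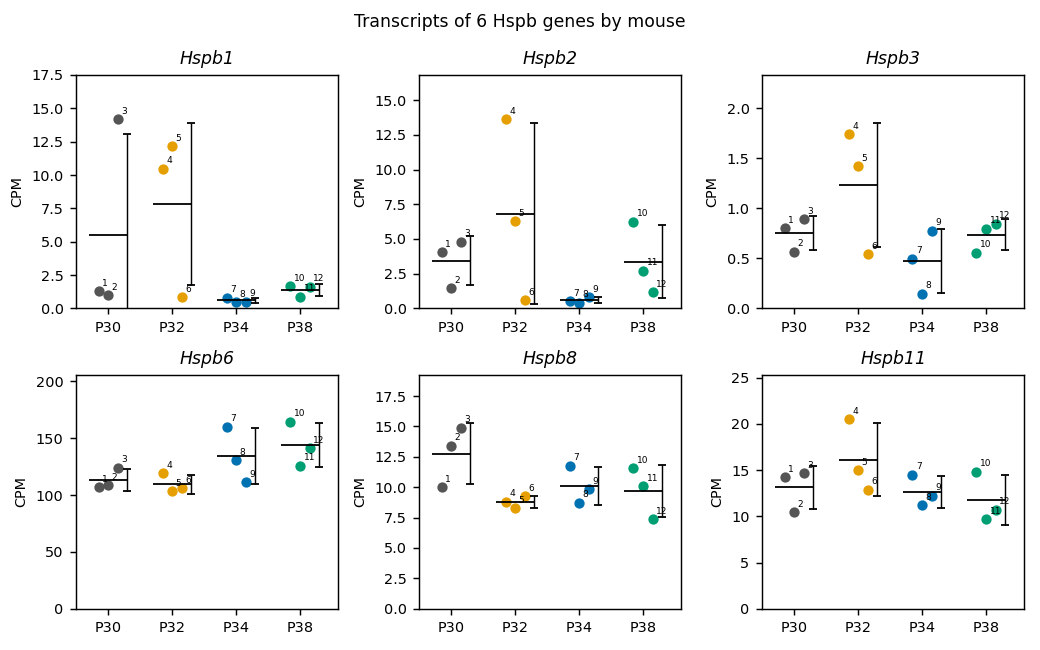
CPM of 6 Hspb genes in each mouse, by age (P30 is control, the others cKO), with mouse numbers; horizontal lines are means and bars are 1 SD (n = 3 mice), cut at 0. Hspb1, Hspb2 and Hspb3 scatter within groups, with Hspb1 at 14.2 CPM in mouse 3 beside 1.31 and 1.01 in mice 1 and 2, whereas Hspb6 and Hspb8 lie close together.

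Hspd1 and Hspe1, which encode Hsp60 and Hsp10 of the mitochondrial folding chamber, are transcribed in opposite directions on chromosome 1 from starts that lie 111 bases apart in the annotation, with overlapping gene models. A longer heat shock element, in which the two-unit match is followed by a further GAA or TTC unit 2 bases on, again in inverted order, contains the shorter match and occurs in the 250 bases before the start in 3 of the 55 chaperone genes with a RefSeq promoter (5.45%; Hspd1, Hspe1 and Dnajb6) and in 0.514% of 27025 genes. The stretch that Hspd1 and Hspe1 share, chr1:55088053-55088082 on the plus strand (GRCm38.p6), is shown because it lies before a start of each, with 3 overlapping two-unit and 2 three-unit matches capitalized, 89 to 72 bases before the start of Hspe1. RefSeq gives Hspd1 2 starts: the element lies 144 to 127 bases before the one at 55087932, 216 bases from the Hspe1 start, and inside the gene model from the one at 55088243, which is also the annotated start used for the distance of 111 bases.
Hspe1: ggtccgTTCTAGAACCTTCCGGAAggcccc
Hspd1 CPM was 62.1, 58.9 and 59.8 at P30, 58.3, 55.0 and 58.3 at P32, 62.2, 57.1 and 60.0 at P34, then 65.4, 56.9 and 55.5 at P38. The highest mouse had 1.19 times the lowest, and the log2 fold changes were -0.08, -0.01 and -0.02 (SE 0.09). Hspe1 CPM was 12.9, 11.8 and 14.1 at P30, 21.7, 12.3 and 10.4 at P32, 13.9, 10.4 and 12.9 at P34, then 13.0, 10.7 and 11.8 at P38. Mouse 4 alone stood out, and the log2 fold change at P32 went from 0.20 to -0.19 without it (SE 0.23 with all mice). In union mode, a read over exons of both Hspd1 and Hspe1 goes to 1 gene by strand or, where strand is ignored, is not counted. Which of these applied is not given in the sources used here. The genes carry 5 and 6 named pseudogene or related copies in the annotation, and reads that fit those as well were not counted.

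Hsph1, the only Hsp110 gene by symbol, holds 1 two-unit element 33 to 26 bases before the start in 1 of its RefSeq models, shown with its surroundings at chr5:149636351-149636380 (GRCm38.p6, minus strand).
Hsph1: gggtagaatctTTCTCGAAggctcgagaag
Hsph1 CPM was 96.9, 101 and 86.8 at P30, 70.0, 84.0 and 86.1 at P32, 94.6, 80.4 and 103 at P34, then 89.8, 112 and 85.4 at P38. All P32 mice were below all P30 mice by a small step (log2 fold change -0.25, SE 0.13, adjusted p = 0.698), and P34 and P38 overlapped P30 (-0.04 and 0.01). Over all 55 promoters, the two-unit element was found in 14 chaperone genes (25.5%) and in 14.5% of all genes; these 14 are a count of letters and not of bound sites. TAATCC, the core letters that OTX2 and CRX recognize, searched on both strands, was found in 0 of the 55 windows and in 7.21% of all genes.

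Among the J proteins of type A, which resemble bacterial DnaJ over their whole length, Dnaja2 was the most abundant at 67.1 RPKM. Its CPM was 213, 190.1 and 184 at P30, 237, 195 and 196 at P32, 221, 185 and 192 at P34, then 217, 181 and 185 at P38, with overlap at every age. Dnaja4 CPM was 46.7, 44.1 and 41.6 at P30, 43.4, 45.4 and 43.2 at P32, 35.2, 38.4 and 39.6 at P34, then 39.6, 39.2 and 37.3 at P38. The 6 mice of P34 and P38 were all below the P30 mice, with log2 fold changes of -0.22 and -0.19 (SE 0.09, adjusted p = 0.388 and 0.847) after -0.00 at P32. Rod markers had the opposite sign at both ages, with 8 of 8 positive (medians 0.18 and 0.30, 0 called), and their part in the Dnaja4 values was not tested. Dnaja1, a partner of Hsc70 in the cytosol, had 73.5 to 82.0 CPM at P30, 79.5 to 98.0 at P32, 72.8 to 86.1 at P34 and 68.6 to 73.9 at P38 (log2 fold changes 0.16, 0.01 and -0.12, SE 0.11).

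Type B J proteins include Dnajb1, the heat-inducible Hsp40, and several of the endoplasmic reticulum. Dnajb2, a ubiquitin-binding J protein enriched in neurons, led at 27.1 RPKM, with 99.6 to 134 CPM over the 12 mice and overlap at all ages. Dnajb12, anchored in the membrane of the endoplasmic reticulum, had 49.5, 49.6 and 48.8 CPM at P30, 40.4, 48.2 and 52.0 at P32, 54.3, 51.3 and 55.6 at P34, then 59.3, 56.3 and 55.8 at P38. Its P30 mice had an SD of 0.443 CPM and all P34 and P38 mice were above them, for log2 fold changes of 0.12 and 0.21 (SE 0.10, adjusted p = 0.694 and 0.847). Dnajb14, its relative in the same membrane, had 113, 117 and 131 CPM at P30, 115, 114 and 128 at P32, 133, 137 and 144 at P34, then 140.3, 139 and 132 at P38. Again P34 and P38 mice were above all P30 mice (0.20 and 0.19, SE 0.09, adjusted p = 0.457 and 0.847). At these ages the 8 rod markers were positive as well, and their part in the values of Dnajb12 and Dnajb14 was not tested. Dnajb1 showed no such step, with 50.5 to 67.6 CPM at P30, 54.8 to 71.8 at P32, 50.5 to 58.5 at P34 and 47.7 to 60.7 at P38.

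The 25 Dnajc genes share the J domain and little else. Dnajc5, which encodes cysteine-string protein of synaptic vesicles, was the most abundant at 68.5 RPKM. Its CPM was 410.2, 441 and 483 at P30, 357, 419 and 485 at P32, 547, 480.1 and 527 at P34, then 543, 497 and 527 at P38, so that only P34 mouse 8 of the 6 older cKO mice reached into the P30 range (log2 fold changes -0.08, 0.22 and 0.23, SE 0.13). Dnajc15, a J protein of the inner mitochondrial membrane also called MCJ, had 34.3, 36.6 and 45.4 CPM at P30, 37.4, 37.2 and 39.2 at P32, 51.4, 43.6 and 48.0 at P34, then 43.6, 44.7 and 45.0 at P38. P30 mouse 3 overlapped both later ages, and the log2 fold change at P34 was 0.30 (SE 0.11, adjusted p = 0.368). Dnajc27, a J protein with a small GTPase domain, had 107, 113 and 136 CPM at P30, 87.8, 109 and 129 at P32, 167, 140 and 154 at P34, then 138, 155 and 138 at P38. All later mice were above P30 (0.37 at P34, SE 0.14, adjusted p = 0.379, and 0.28 at P38). Dnajc14, first described in the export of a dopamine receptor, followed the same order with 50.5 to 55.9, 41.3 to 54.8, 60.5 to 71.2 and 57.1 to 67.0 CPM (0.27 at P34, SE 0.12, adjusted p = 0.451).

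Dnajc13, also called RME-8 and needed on early endosomes, had 76.6, 88.6 and 97.7 CPM at P30, 52.7, 76.2 and 81.6 at P32, 91.9, 102 and 101 at P34, then 96.9, 107 and 100 at P38. P32 mice 4 and 5 were below P30 and the log2 fold change was -0.32 (SE 0.15, adjusted p = 0.698), or -0.15 without mouse 4. Dnajc3, an inhibitor of stress kinases in the endoplasmic reticulum, had 61.4 to 64.9 CPM at P30 and 45.5, 57.2 and 60.6 at P32, without overlap (-0.23, SE 0.11, adjusted p = 0.698), and 58.2 to 70.8 at the later ages. Summed Dnajc RPKM was 382 ± 9.17 at P30, 376 ± 15.8 at P32, 418 ± 15.6 at P34 and 411 ± 22 at P38 (SD, n = 3), and 12, 18 and 18 of the 25 genes had a positive log2 fold change at P32, P34 and P38, beside all genes, of which 51.5%, 50.2% and 51.8% were negative. Those comparisons share the P30 mice. Against P32, 17 of the 25 Dnajc genes were positive at P34 and 14 at P38. Of the 8 rod markers, 6 were negative at P32 against P30, and 8 were positive at P34 and at P38 against P32 (medians 0.40 and 0.44), with unadjusted p at most 0.05 for 4 each time and 0 called. Hsp90aa1, Hspa13 and Hspa4l had these same signs, with log2 fold changes of -0.22, -0.21 and -0.25 at P32 against P30. The part of rod RNA in these values was not tested.

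**Figure D4:**
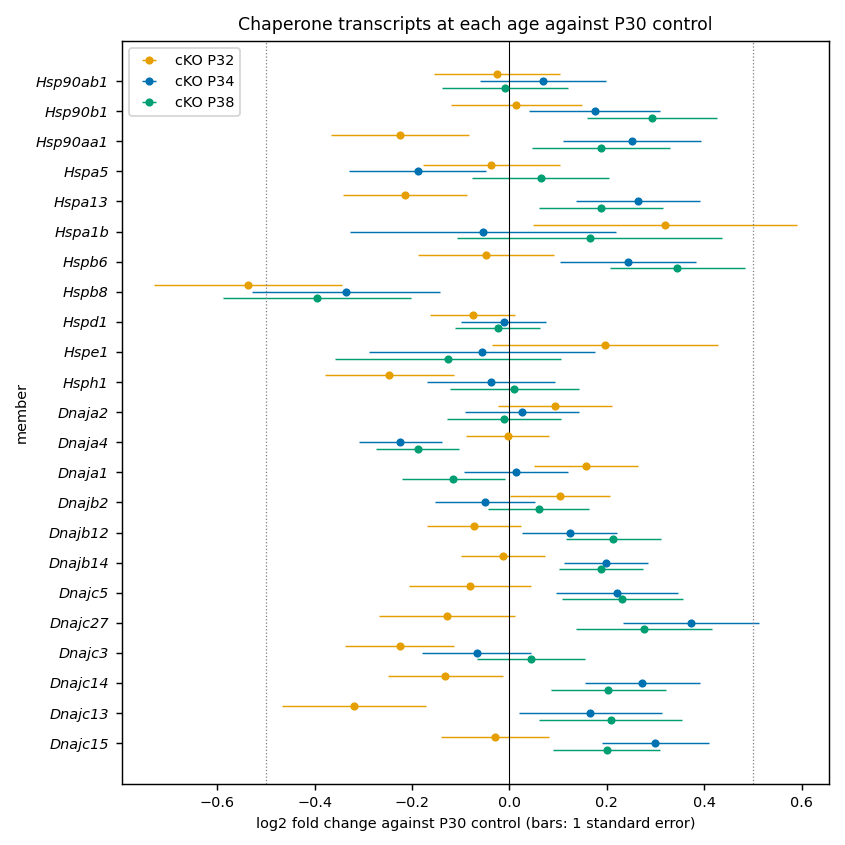
Log2 fold change against P30 control for 23 of 27 named chaperone genes (without Hspb1, Hspb2, Hspb3 and Hspa1l, each beyond the limit at 1 age or more) at P32, P34 and P38 (points, bars 1 standard error, n = 3 mice per group), with dotted lines at the fold limit of 0.5 in size. Of the points drawn, the one beyond the limits is Hspb8 at P32, at -0.54.

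The widest steps lay between P32 and the later ages. Against P32, 0 genes passed at P34 (all genes 0.242% lower and 0% higher), with unadjusted p at most 0.05 for 15 higher (22.7%, all genes 13.5%) and 5 lower (7.58%, all genes 13.3%). The smallest adjusted p values were 0.0948 for Hspa13 (log2 fold change 0.48, SE 0.13) and Hspb2 (-3.56, SE 0.96), 0.0949 for Dnajc27 (0.50, SE 0.14) and 0.0962 for Dnajc14 (0.41, SE 0.12). Hspa4l, an Hsp110-like gene of the Hspa class, had 266, 323 and 416 CPM at P32 and 462, 464 and 484 at P34 (0.49, SE 0.15, adjusted p = 0.0973), without overlap. By ranges alone, P34 mice lay above all P32 mice for 15 genes (22.7%, all genes 14.8%) and below them for 4 (6.06%, all genes 13.6%), and P38 mice for 13 (19.7%, all genes 13.3%) and 8 (12.1%, all genes 13.2%). At P38 against P32, 0 genes passed (all genes 0% in both directions), with 14 higher (21.2%, all genes 12.3%) and 5 lower (7.58%, all genes 10.9%) by unadjusted p. With each mouse left out, the P38 counts ranged from 8 (without P38 mouse 10; all genes 11.1%) to 17 higher (without P32 mouse 6; 17.7%) and from 0 (without P38 mouse 11; 7.34%) to 10 lower (without P32 mouse 6; 15.3%). The P34 counts ranged from 10 (without P32 mouse 5; all genes 10.3%) to 16 higher (without P32 mouse 6 or P38 mouse 10; 18.9% and 13.7%). They ranged from 3 (without mouse 4, 5 or 7; 7.92, 11.6 and 10.3%) to 9 lower (without mouse 6; 17.3%). At P38 against P34, 0 passed (all genes 0% lower and 0.199% higher), with 1 higher, Hspb2 (1.52%, all genes 3.5%), and 0 lower (all genes 1.58%). A test of any difference over the 4 conditions gave 0 genes (all genes 0.344%), with unadjusted p at most 0.05 for 15 (22.7%, all genes 17.2%), led by Dnajc27 and Hspa13.

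The calls between P32 and later ages depended on the tool and on which P32 mouse was left out. DESeq2 called 3 of 66 genes at P34 against P32 (4.55%, all genes 7.63%; Hspb1, Hspb2 and Hspa12a) and 2 at P38 against P32 (3.03%, all genes 4.99%; Hspa4l and Dnajc13). Without P32 mouse 6, edgeR called 11 of 67 at P34 against P32 (16.4%, all genes 14.3%) and 7 at P38 against P32 (10.4%, all genes 10.2%), shares near those of all genes. Without mouse 4 it called 0 in both comparisons (all genes 0.226% and 0.00527%), as it did without mouse 5 (all genes 0.157% and 0%). The 11 were Hspb1, Hspb2 and Hspb3 as lower and Hsp90aa1, Hspa4l, Hspa12a, Hspa13, Dnajc6, Dnajc13, Dnajc14 and Dnajc27 as higher. Hspa4l, for example, had 266 and 323 CPM in mice 4 and 5 and 416 in mouse 6, within the 363 to 435 of P30. With the lens level as a covariate, 2 genes in place of 15 were higher at P34 than at P32 by unadjusted p (3.03%, all genes 2.6%), and 12 in place of 14 at P38 (18.2%, all genes 11.8%). The share of all genes at P34 had been 13.5% without the covariate.

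Gene length moved with the values of several mice, with the widest steps in mouse 4. The deviation of its log2 CPM from the mean of the other 11 mice had a median of 0.66 for the 11 chaperone genes with under 2000 bases of exon (10 of 11 above 0), 0.12 for the 31 genes between 2000 and 5000 bases, and -0.41 for the 24 genes of 5000 bases or more (4 of 24 above 0). All genes tested gave 0.52, 0.12 and -0.33 in the same bins. Mouse 5 had medians for chaperone genes of 0.08, -0.03 and -0.13 (4 of 24 long genes above 0). Mouse 6 had -0.14, -0.05 and -0.01, with 0 of 11 short genes above 0 (median of all short genes -0.03). P34 mouse 8 had the opposite order, at -0.35, -0.07 and 0.11 (0 of 11 short genes above 0). Dnajc13, Hspa4l and Dnajc6, which were lowest in mouse 4, are long, and Hspe1 and Dnajc30, which were highest in it, are short. Mouse 4 also had the largest share of reads without a unique position, 32.2% beside 23.7 to 29.3% in the other 11. The part of length in the steps from P32 was not tested.

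**Figure D5:**
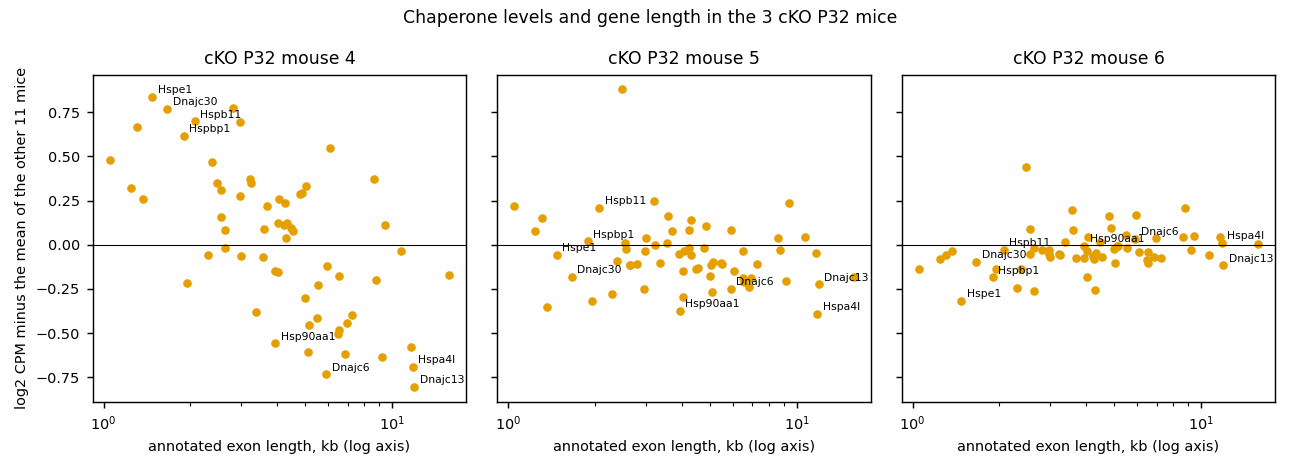
Deviation of each chaperone gene's log2 CPM from the mean of the other 11 mice (vertical axis) against its annotated exon length in kilobases (log axis), for the 3 cKO P32 mice, without Hspb1, Hspb2 and Hspb3. Short genes lie mostly above 0 and long genes mostly below in mouse 4, with bin medians from 0.66 to -0.41. The bin medians of mouse 6 run from -0.14 for short genes to -0.01 for long genes.

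By place in the cell, no subset held a called gene against P30. Of 11 cytosolic heat-inducible genes (such as Hspa1a, Dnajb1 and Hsp90aa1), 0 passed at any age against P30 and the median log2 fold changes were 0.06, -0.03 and -0.01. Of 11 genes of the endoplasmic reticulum (such as Hspa5, Hsp90b1 and Dnajb9), 0 passed, with medians of -0.07, 0.07 and 0.06. Of 9 mitochondrial genes (such as Hspd1, Hspa9 and Dnajc15), 0 passed, with medians of -0.02, 0.04 and -0.02. The 3 genes of synaptic vesicles and endocytosis (Dnajc5, Dnajc6 and Dnajc13) were negative at P32 and positive at P34 and P38 (medians -0.18, 0.22 and 0.23), and 0 passed. Against P32, all 3 had an unadjusted p of at most 0.05 and a positive log2 fold change at P34 (median 0.48, all genes 13.5%) and at P38 (median 0.43, all genes 12.3%), and 0 passed. The 6 nuclear and ribosome-linked genes had medians of 0.07, -0.00 and -0.12, and 0 passed. The medians over all genes tested were -0.01, -0.00 and -0.01.

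The regulators and partners of the chaperones gave no call either. Of the heat shock factor list, 5 of 6 genes were tested and 0 passed at any age; the smallest p at P34 belonged to Hsf1, the main stress factor, at 43.5, 47.4 and 34.9 CPM at P30 and 29.8, 39.5 and 36.7 at P34 (log2 fold change -0.25, SE 0.14, adjusted p = 0.578). Hsf4, the lens factor of the family, was highest in mice 3, 4 and 5 (16.0, 16.3 and 12.1 CPM) and 4.09 to 8.27 CPM in the others, the same mice as for Hspb1. Of 13 Hsp70 co-chaperones, 0 passed, with the smallest p for Bag3, a nucleotide exchange factor that binds Hspb8, at P34 (-0.55, SE 0.14, adjusted p = 0.133) and P38 (-0.44, SE 0.13, adjusted p = 0.847), and for Stub1, the ubiquitin ligase CHIP, at P32 (0.45, SE 0.21, adjusted p = 0.698). Of 17 Hsp90-linked genes, 0 passed; the smallest p were for Unc45a at P32, Ahsa2 at P34 and Ppid at P38, all with log2 fold changes between -0.23 and -0.20. The 9 CCT chaperonin subunits (Cct7 0.18 at P32, Cct6b -0.36 at P34 and Cct6a 0.11 at P38 had the smallest p), the 6 prefoldin subunits (Pfdn6 0.28, Pfdn4 0.11 and Vbp1 -0.13) and the 4 J proteins named otherwise (Sec63 -0.19 at P32 and 0.09 at P38) also gave 0 calls. Among 9 other chaperones, 0 passed, and the smallest p was that of Serpinh1, the collagen chaperone, at P34 (-1.38, SE 0.39, adjusted p = 0.228).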

How the data were processed

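RNA from 1 whole retina of each of 12 mice was measured. For the TruSeq stranded mRNA libraries, read as single ends, the authors used bcl2fastq 2.17.1.14 for demultiplexing, STAR 2.5.3a for alignment to mm10, and HTSeq 0.6.1p1 in union mode for counts over Ensembl genes, per the study's methods and the submitters' processing notes. They deposited whole-number counts per gene for each mouse, without normalization. HTSeq does not count a read with several positions, which lowers the values of genes that have near-identical copies.

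Symbols, positions and exon lengths came from GENCODE M21 on GRCm38, which named 54079 (99.9%) of the 54146 genes, and promoters from RefSeq (GRCm38.p6), which matched 55 of the 67 chaperone genes. Counts were scaled by TMM and fitted with edgeR 4.0.16 in R 4.3.3 (quasi-likelihood test, genes kept by filterByExpr, all 12 mice in 1 fit with 1 mean per condition, Benjamini-Hochberg adjustment over 18628 genes). Calls needed an adjusted p no higher than 0.05 together with a log2 difference of 0.5 or more in either direction. The standard error is the size of the log2 fold change divided by the square root of F, and log2 CPM used a prior count of 2. Library totals of 29701483 to 60145034 and their TMM factors put 3 counts at 0.0473 to 0.102 CPM, which covers counting error only. The fit was tested on simulated counts.

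The chaperone families, subsets, pathway lists and cell type markers were chosen with earlier results of these data known. Genes named with values are those with the 3 smallest p in each direction against P30 at each age, the most abundant gene and the gene with the smallest p for any difference in each class, the 5 with the largest spread within conditions, and the gene with the smallest p of each pathway list. Some genes that this rule names are not reported here. Hspa1a, Hspa4l, Hspa8, Hspa9, Hspa12a, Dnajb1, Dnajc6, Dnajc11, Dnajc30, Dnajb9, Dnajb11, Hspb7, Hspb11, Hspbp1 and Hspbap1 were named after their values were seen or for their role. Alternatives were DESeq2 1.42.0 and its size factors, other filters, fits of only the conditions compared, no fold limit and leaving out each mouse; sex and the lens level as covariates were added after seeing the data. The mice of a group are separate animals, and litter was not given in the sources used here.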

Additional observations from a re-analysis of the deposited data

How the results depend on the processing

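No paired analysis was possible because no replicate number is shared between conditions. The count of chaperone genes called against P30 stayed at 0 at P32 and P38, and in the comparison of all cKO mice with P30, under every alternative run. At P34 it was 1 (Hspb2; all genes 1.28%) with only the conditions compared. Against P32, P34 gave 2 calls with no filter on low counts (all genes 1.93%), 3 with DESeq2 (7.63%) and 0 to 11 with each mouse left out in turn; P38 gave 2 with DESeq2 (4.99%) and 0 to 7 with each mouse left out; and the test of any difference gave 1 with no filter (Hspb1; 1.22%), 3 with DESeq2 (Dnajc27, Hspa4l and Hspa13; 7.34%) and 0 to 2 with each mouse left out. The upper ends of these 3 ranges came without cKO P32 mouse 6, where 14.3, 10.2 and 3.08% of all genes were called, and the cause was not tested. Of the alternative counts of calls, 148 were 0, as in the reported fits, and 9 were above 0; among the alternative log2 fold changes of named genes, 1530 were within the spread or on the same side of the threshold, 6 moved and 1 passed the threshold; no value was called in the reported fits, so none could lose a call. Counts by unadjusted p were less steady: with each mouse left out, the higher genes ranged from 0 to 8 at P34 and from 0 to 11 at P38 against P30 (the largest both without mouse 4; all genes 6.71 and 4.94%), and the lower ones from 0 at P32 (without mouse 3; 1.56%) to 7 (without mouse 6; 11.7%). Most genes lay well above the level of 3 counts, and Hspa1l and Hspb7 lay near it. Whether depth limited the calls was not tested.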
